A study of Mus musculus with 6 samples.

Results

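Mature Ccr7 positive dendritic cells were examined in single-cell RNA sequencing libraries of mouse colon tumours. A barcode was counted as mature when it held at least 1 UMI (unique molecular identifier, 1 captured mRNA molecule) of Ccr7, at least 2 of Ccl22 and Fscn1 together, at least 5 of H2-Ab1 and Cd74 together, and 0 of Cd3e, Cd79a and Epcam, the genes that mark T cells, B cells and epithelium. Barcodes with fewer than 200 detected genes or more than 20% mitochondrial UMIs had been left out. The rule found 360 members among 50875 kept barcodes and 64505 deposited ones.

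Dendritic cells take up antigen in a tissue and present it to T cells. On maturation they switch on the chemokine receptor Ccr7, which guides them along Ccl19 and Ccl21 towards lymphatic vessels and the draining lymph node, and they reduce uptake while raising costimulatory and inhibitory ligands. Fscn1 encodes fascin, which bundles actin in their dendrites, and Ccl22 is a chemokine that attracts T cells carrying Ccr4. In tumours such cells are known for expressing PD-L1 (Cd274) and IL-12 side by side.

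The AOM PN tumours came from VilcreER P53fl/fl Notch1Tg mice, which received 2 mg tamoxifen by intraperitoneal injection and, from 4 days later, azoxymethane (AOM, a colon carcinogen) at 10 mg/kg weekly for 6 weeks. The labels put them in an ageing tumour group. The Apc ICI tumours came from VilCreER Apcfl/fl mice after an intracolonic induction, in which 70 µl of 100 µM 4-hydroxytamoxifen was placed once in the colonic submucosa. Each model gave 3 libraries. All mice were male and were taken at a clinical endpoint; the villin-driven Cre acts in the intestinal epithelium, so the dendritic cells themselves are not its target. Genotype, carcinogen, induction route and age at collection differ together between the models and cannot be told apart. Whole tumours were dissociated, DAPI-positive dead cells were removed by sorting, and no sort for dendritic cells is described. The labels do not say that the libraries come from separate mice, so the p-values measure the spread between these libraries.

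The mature barcodes numbered 65, 96 and 103 in AOM PN 1 to 3 and 36, 40 and 20 in Apc ICI 1 to 3. They were deeply sampled, with median totals per barcode of 9164 to 12073 UMIs in AOM PN and 16263 to 18341 UMIs in Apc ICI, so the groups differed in depth per barcode. Haemoglobin mRNA, which dendritic cells do not make, took 2.86%, 0.131% and 0.186% of their UMIs in AOM PN and 1.33%, 0.171% and 7.36% in Apc ICI. A doublet score marked 7, 6 and 9 members in AOM PN and 2, 6 and 13 in Apc ICI, that is 13 of the 20 in Apc ICI 3, and the shares, the contrast of mature with immature barcodes and the contrast of mature barcodes between models were also computed without them. Barcode sequences shared between libraries numbered 4 to 34 per pair among kept barcodes, and 0 among members.

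The 3 genes that define the label were present at high counts. Members held a median of 25.5 Ccr7 UMIs (range 1 to 151), 7 Ccl22 UMIs (0 to 205) and 2 Fscn1 UMIs (0 to 96). The members were chosen by these measured UMI counts, which are given as description. Of the 360, 17 stood at the lower limit of 1 Ccr7 UMI and 28 at the limit of 2 Ccl22 and Fscn1 UMIs. Just outside, 87 barcodes met every other term with 0 Ccr7 UMIs and 53 with 1 Ccl22 or Fscn1 UMI. Another 393, more than the members, met every other term with 0 Ccl22 and Fscn1 UMIs. A further 94 met all terms except for a UMI of Cd3e, Cd79a or Epcam. Ccr7 appeared in 1.04% of neutrophil-gated barcodes (range over libraries 0.595% to 1.29%), whose median depth was 3034 to 4080 UMIs, and in 1.94% of epithelial-gated barcodes with 6392 to 24621 UMIs, classes that should lack it. The 8 erythroid genes listed, haemoglobin among them, took 0.131% to 2.87% of member UMIs in AOM PN and 0.171% to 7.39% in Apc ICI; neutrophil and mast cell genes are given beside the model comparison. The plasmacytoid gene Siglech had a UMI in 0 of 360 members, which allows up to 0.833% of members with a UMI and does not limit the share expressing it. The 12 T and NK genes listed took 0.00403% to 0.0094% of member UMIs in AOM PN and 0.00141% to 0.0024% in Apc ICI.

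Members differed in Fscn1. It had 0 UMIs in 157 of 360 (43.6%), which were members through Ccl22. The 203 with Fscn1 had a median of 11151 UMIs in all, and the 157 without it 11877. Cacnb3, a calcium channel subunit that accompanies dendritic cell maturation, was detected in 79.3% of the members with Fscn1 and 24.2% of those without; it was found in 0.464% of neutrophil-gated but 23.8% of epithelial-gated barcodes. The same order held in 6 of 6 libraries, with 68.3% to 91.7% against 19.5% to 33.3%. Socs2, an inhibitor of cytokine signalling, was found in 82.8% against 33.8%, and Ccl5 in 56.7% against 14.6%. Genes of immature cells went the other way. The type 2 gene Cd209a was found in 0.493% of the members with Fscn1 and 14% of those without, and Clec10a in 6.9% against 28%. Naaa, taken below with the type 1 genes, was found in 8.37% against 25.5%. The median of Ccr7 was 32 UMIs in the members with Fscn1 and 17 in those without. Cd274 (82.3% against 81.5%), Cd80 (74.9% against 77.1%) and Ccl17 (76.4% against 77.7%) were close in the pooled members with and without Fscn1. By library the order for Cd274 varied, with 73.2% against 87.5% in AOM PN 1 and 85.5% against 70.7% in AOM PN 3. This split was chosen after the counts had been seen, rests on a gene that the rule reads, and is given without a test.

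**Figure D1:**
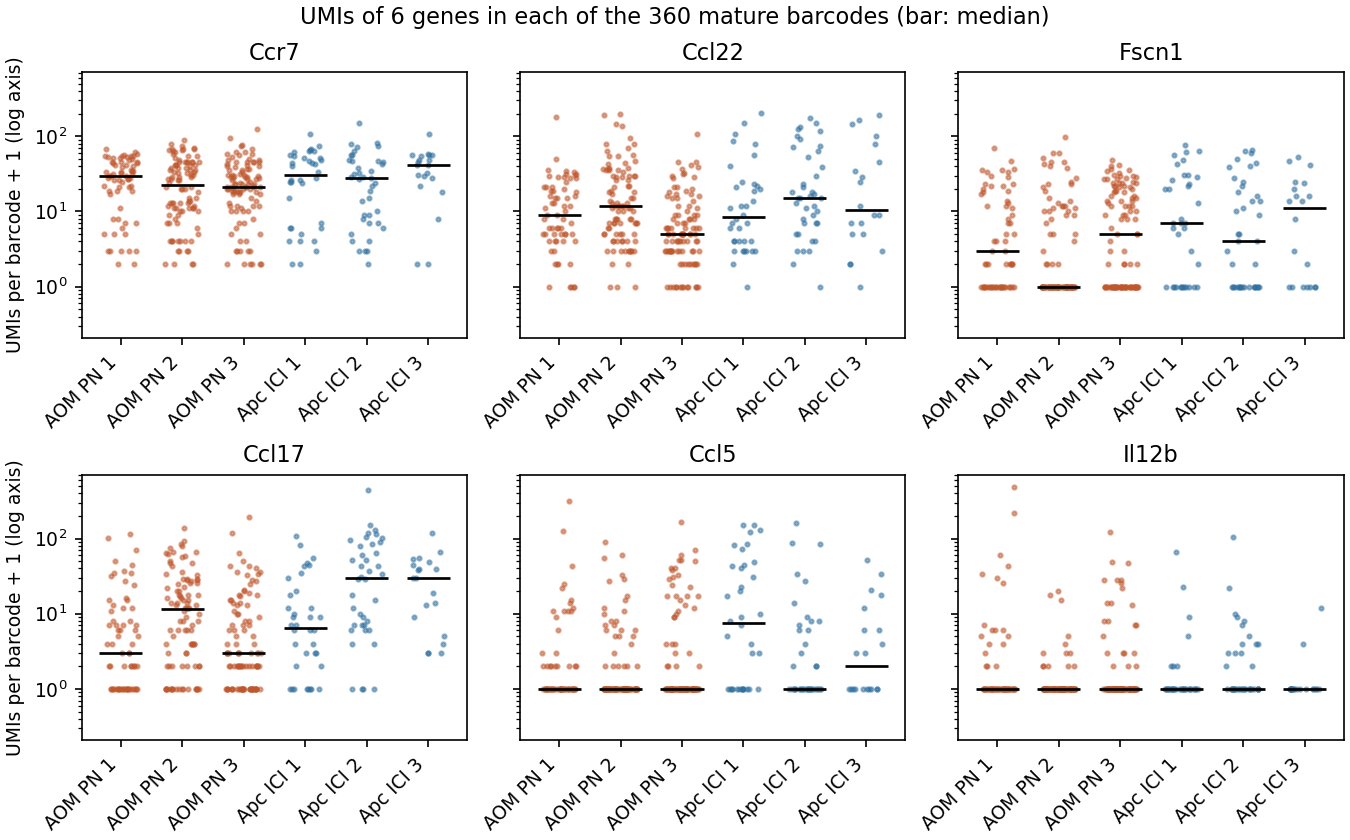
Each point is 1 of the 360 mature barcodes, by library, with its UMIs of 6 genes plus 1 on a log axis and a bar at the library's median. Fscn1 is at 0 in 157 members while Ccr7 reaches 151, and Il12b UMIs sit in 79 members.

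Secreted products were unevenly spread over the members. Il12b, the p40 chain shared by IL-12 and IL-23, had a UMI in 79 members (21.9%), and 94.3% of its 1720 UMIs came from the 36 members with the most. A single barcode of AOM PN 1 held 491 of that library's 936 Il12b UMIs. Ccl5, a chemoattractant of effector T cells, was present in 38.3% of members, with 77.6% of its UMIs in the top 36. By contrast the top 36 held 29.2% of Cd274 and 27.5% of Relb UMIs. Il12b was found in 0.0736% of neutrophil-gated and 0.0636% of epithelial-gated barcodes. Conventional dendritic cells of type 1 were read from Xcr1, Clec9a, Cadm1, Tlr3, Naaa and Snx22. Those of type 2 were read from Cd209a, Clec10a, Mgl2, Klf4, Itgam and Clec12a. Of these 6 genes each, 160 members carried 2 or more UMIs of the type 2 genes alone, 6 of the type 1 genes alone, 26 of both sets and 168 (46.7%) of neither. Among the 432 immature dendritic barcodes described below the counts were 205, 48, 175 and 4. The immature rule reads several of these genes, so the difference between mature and immature is partly set by it. Itgam is counted below as mainly of another class. The counts do not tell which gene of a set gave them, and do not give the origin of a member.

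The first comparison asked whether the models differed in how many such cells they held. Mature barcodes made up 0.557%, 1.08% and 0.806% of kept barcodes in AOM PN and 0.72%, 0.545% and 0.383% in Apc ICI. The groups overlapped, with means of 0.816% ± 0.264 in AOM PN and 0.549% ± 0.169 in Apc ICI (SD, n = 3 each; two-sided exact permutation p = 0.2). With each barcode thinned to 2000 UMIs, the means were 0.603% and 0.523%.

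Set against immature dendritic cells of the same tumour, mature barcodes had a lower share in each AOM PN library than in any Apc ICI library. Immature barcodes had to hold at least 2 UMIs of Flt3, Zbtb46, Xcr1, Clec9a and Cd209a together, the same antigen presentation and lineage terms, at most 1 C1q UMI, and 0 of Ccr7, Ccl22, Fscn1 and Siglech; 60, 87 and 236 were found in AOM PN and 25, 16 and 8 in Apc ICI. Mature barcodes were 52%, 52.5% and 30.4% of mature plus immature ones in AOM PN, and 59%, 71.4% and 71.4% in Apc ICI. Barcodes that met the mature rule but for 0 Ccl22 and Fscn1 UMIs were in neither set. They numbered 86, 84 and 169 in AOM PN and 18, 22 and 14 in Apc ICI. No library of one model overlapped the other, at 44.9% ± 12.6 in AOM PN and 67.3% ± 7.17 in Apc ICI (SD, n = 3 each). The two-sided exact permutation p was 0.1, the smallest that 3 against 3 can give. The exact 95% binomial intervals of single libraries were wide, for example 51.3% to 86.8% for Apc ICI 3, which rests on 28 barcodes, and cover counting error only. Thinning to 2000 UMIs gave 50.6% and 72.1%. With scored doublets left out the values were 45.5% in AOM PN and 57.9% in Apc ICI, the groups overlapped, and the exact p was 0.4. Immature barcodes were 1.11% ± 0.676 of kept barcodes in AOM PN and 0.29% ± 0.184 in Apc ICI (exact permutation p = 0.1, n = 3 each); with scored doublets left out these groups overlapped too (p = 0.2), as they did with haemoglobin-rich barcodes left out of the denominator and with at least 3 UMIs asked of immature barcodes (p = 0.2 in each).

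**Figure D2:**
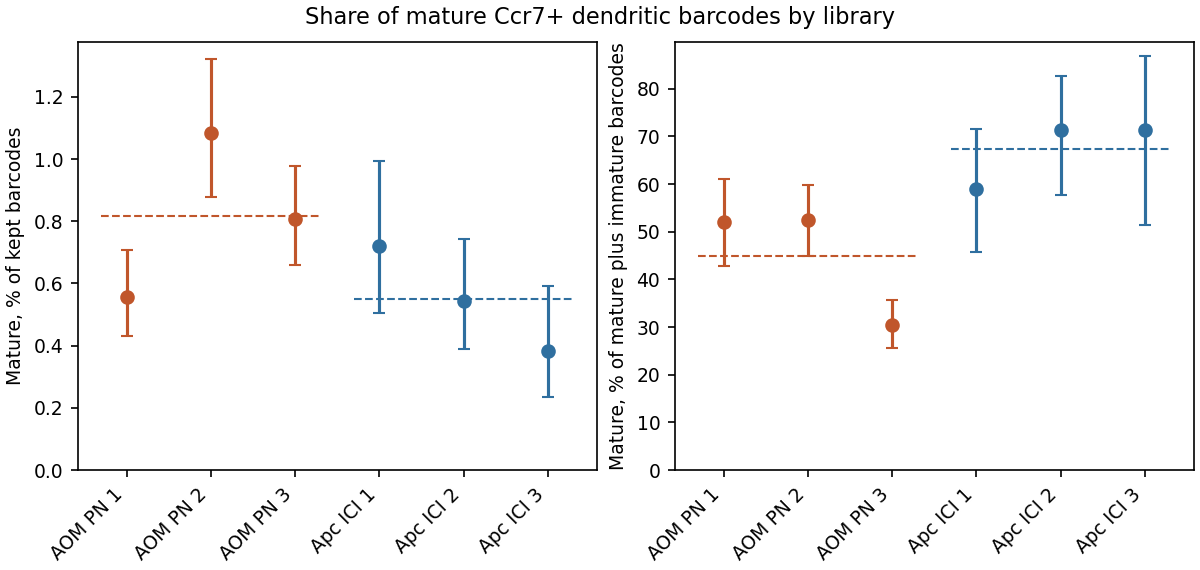
Left, mature barcodes as % of kept barcodes; right, as % of mature plus immature dendritic barcodes, with 1 point per library, exact 95% binomial intervals and a dashed line at each model's mean. The models overlap on the left (means 0.816% in AOM PN and 0.549% in Apc ICI) and do not overlap on the right (44.9% and 67.3%).

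The second comparison set mature against immature dendritic barcodes within the same library. UMIs were summed over the barcodes of each state in 5 libraries; Apc ICI 3, with 8 immature barcodes, was left out. Of 5601 genes tested that neither rule reads, 1051 were higher in mature barcodes (18.8% of those tested) and 1143 lower (20.4%), 39.2% in all, at an adjusted p under 0.05 in edgeR's quasi-likelihood test with library as a block. Against only the immature barcodes without a Xcr1 or Clec9a UMI, Apoe, Arg1, Cxcl2, H2-Aa, Il2ra and Il6 of the genes described below no longer passed (edgeR adjusted p 0.0578 to 0.416). A second subset held at least 2 UMIs of Xcr1 and Clec9a together and left 3 libraries, all AOM PN. Against that subset, Bcl2, Ccl6, Clec10a, H2-Aa, Irf7, Jun, Lgals9, Tgfbr2 and Vsir did not pass (edgeR adjusted p 0.0607 to 0.853). The median log2 change over all genes tested was -0.04, and 44.3% of them pointed the same way in 5 of 5 libraries. Genes that travel with a gene of the rules in the same cells differ partly through the rules, so the size of the response is a description of these gates. Of the 2194 genes that passed, 402 had a mature level under 0.25 of that in neutrophil-, macrophage-, T-, B-, epithelial-, mast- or erythroid-gated barcodes of the same tumours. Among genes described below this holds for Apoe, Arg1, Bcl11a, Bcl2, Ccl4, Ccl6, Ccl9, Cst7, Cxcl2, Egr1, Ifngr1, Il2ra, Il6, Irf7, Itgam, Jun, Lgals9, March1, Psap, Tgfbr2 and Vsir. Levels are normalised CPM (UMIs of a gene scaled to the total UMIs of the summed barcodes); the 10x 3′ kit reads 1 end of each mRNA, so a level is not divided by gene length and genes are not ranked against each other by it.

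Genes of maturation and migration were nearly all higher. Of 35 listed, 30 were tested outside the rule, 28 rose and 1 fell, with a median log2 change of 2.63. The steepest contrasts were near on-off. Cacnb3 was at 177, 108 and 176 CPM in mature barcodes of AOM PN 1 to 3 and 329 and 188 CPM in those of Apc ICI 1 and 2, while immature barcodes had 0 in 4 libraries and 0.688 CPM in AOM PN 3. Its 701 mature and 2 immature UMIs gave a ratio of 471 (exact 95% counting interval 130 to 3893). Mreg, melanoregulin, which acts in vesicle transport, had 54.5 to 78 CPM in mature and 0 in every immature sum, at least 122-fold higher against a floor of 3 UMIs over the 5 immature sums. Adcy6, an adenylate cyclase, was likewise at 0 in immature barcodes and at least 53.3-fold higher. Nudt17, a Nudix hydrolase, had 409 mature UMIs and 1 immature UMI, a ratio of 549 (98.0 to 21741). Each of these contrasts pointed the same way in 5 of 5 libraries.

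Less extreme members of the list were high in absolute count as well. Tbc1d4, a Rab GTPase-activating protein, averaged 934 ± 285 CPM in mature and 40.4 ± 14 in immature barcodes (SD, n = 5 each; log2 change 4.57). Serpinb6b, a protease inhibitor, averaged 791 and 33.6 CPM, Tmem123 751 and 67.5 CPM, and the actin-linked Marcks 1080.4 and 218 CPM. Apol7c, an apolipoprotein L of dendritic cells, averaged 437 and 20.4 CPM. Cst7, cystatin F, was the member that fell (8.67 and 21.3 CPM, edgeR adjusted p = 0.016), a call that was lost without AOM PN 2 (0.0526). Cd83, a surface marker of mature dendritic cells, was close in both, at 772 ± 191 CPM in mature and 554 ± 142 in immature barcodes (log2 change 0.48 ± 0.11 SE, edgeR adjusted p = 0.0049). The Cd83 call was lost with barcodes thinned to 2000 UMIs (0.0864) and without the library block (0.0919).

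**Figure D3:**
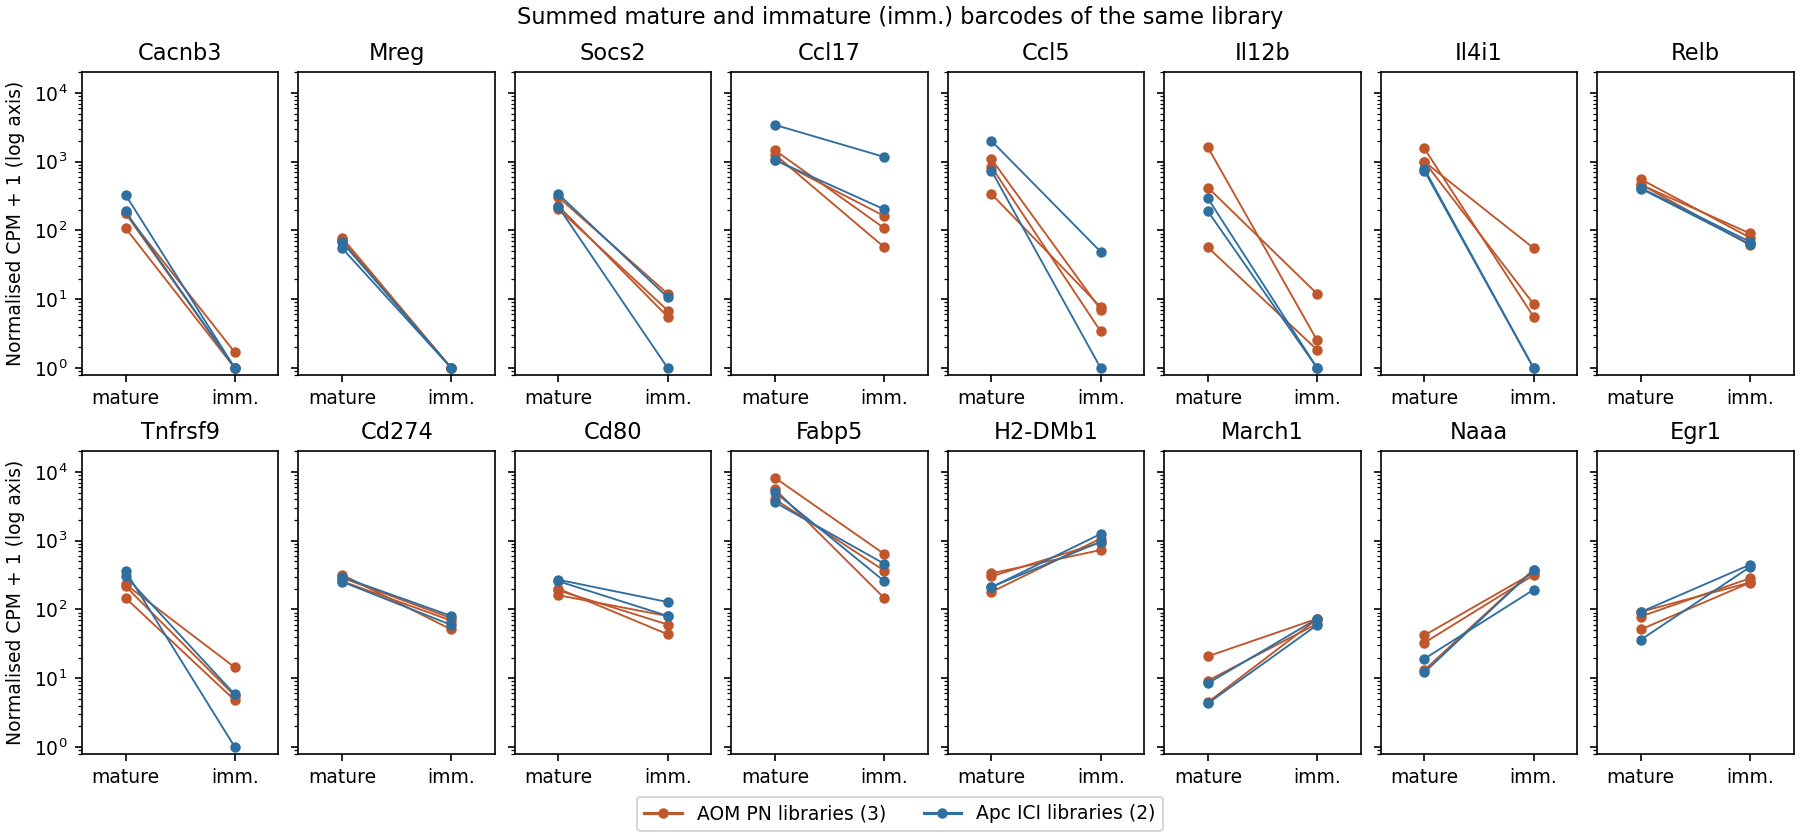
Normalised CPM plus 1 on a log axis for 16 genes in summed mature (left) and immature (right) barcodes, with 1 line for each of 3 AOM PN and 2 Apc ICI libraries. Cacnb3 and Mreg are at or near 0 in immature barcodes, Ccl17, Ccl5, Il4i1 and Fabp5 are higher in mature barcodes in 5 of 5 libraries, and H2-DMb1, March1, Naaa and Egr1 lower in 5 of 5.

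Among chemokines 4 of the 10 tested rose and 3 fell, and 5 of the 10 were mainly of another class. Ccl17, which like Ccl22 binds Ccr4 on T cells, was at 1268, 1466 and 1076 CPM in mature barcodes of AOM PN and 1057 and 3431 CPM in those of Apc ICI. In immature barcodes it was at 56.2, 107 and 161 CPM in AOM PN and 202 and 1174 CPM in Apc ICI, so Apc ICI 2 was the highest library in both states (log2 change 2.92 ± 0.34 SE, edgeR adjusted p = 6.6e-05). Ccl5 averaged 1006 ± 625 CPM in mature and 12.7 ± 20 CPM in immature barcodes (log2 change 6.73, and 7.48 without Apc ICI 1). Cxcl16, the ligand of Cxcr6 on effector T cells, averaged 783 and 160 CPM. Cxcl2, a neutrophil attractant, averaged 1968 and 768 CPM. The chemokines that fell were Ccl4, Ccl6 and Ccl9. Against immature barcodes with at least 2 UMIs of Xcr1 and Clec9a together (AOM PN only), Ccl9 was higher in mature ones (log2 change 2.31, edgeR adjusted p = 0.0128). Ccl6 did not pass there (log2 change 0.85, edgeR adjusted p = 0.232). Cxcl1, another neutrophil attractant outside the list, stood among the steepest contrasts with 126, 78 and 60.6 CPM in mature AOM PN barcodes, 154 and 69.3 CPM in mature Apc ICI ones, and at most 2.41 CPM in an immature sum.

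The promoters of the chemokines Cxcl1, Ccl22 and Ccl17, and of Nfkb2, the NF-κB subunit gene described next, are shown because these genes stand for the programme and NF-κB acts through a known DNA motif. They run from 250 bases before to 50 after the RefSeq gene start (GRCm38.p6, plus strand): chr5:90890995-90891294 for Cxcl1, chr19:46304487-46304786 for Nfkb2, chr8:94745434-94745733 for Ccl22 and chr8:94810203-94810502 for Ccl17. Where a gene has several windows the first by position is shown. Capitals mark the NF-κB consensus motif on either strand, where matches may overlap.
Cxcl1: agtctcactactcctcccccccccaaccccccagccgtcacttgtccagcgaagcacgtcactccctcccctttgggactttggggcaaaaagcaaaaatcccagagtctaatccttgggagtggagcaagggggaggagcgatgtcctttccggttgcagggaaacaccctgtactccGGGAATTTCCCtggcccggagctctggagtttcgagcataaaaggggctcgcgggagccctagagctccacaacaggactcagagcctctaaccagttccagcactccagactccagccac
Nfkb2: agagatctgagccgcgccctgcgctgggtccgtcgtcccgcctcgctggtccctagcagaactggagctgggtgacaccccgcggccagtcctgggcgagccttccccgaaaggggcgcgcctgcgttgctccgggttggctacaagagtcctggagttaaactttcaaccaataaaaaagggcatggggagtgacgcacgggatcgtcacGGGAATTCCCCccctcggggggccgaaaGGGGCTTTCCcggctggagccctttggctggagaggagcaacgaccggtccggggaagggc
Ccl22: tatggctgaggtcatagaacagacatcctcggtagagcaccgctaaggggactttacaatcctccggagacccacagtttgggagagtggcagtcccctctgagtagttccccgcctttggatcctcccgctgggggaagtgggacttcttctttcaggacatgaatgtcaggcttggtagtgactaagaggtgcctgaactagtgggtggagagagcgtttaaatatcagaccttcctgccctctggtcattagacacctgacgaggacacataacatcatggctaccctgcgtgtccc
Ccl17: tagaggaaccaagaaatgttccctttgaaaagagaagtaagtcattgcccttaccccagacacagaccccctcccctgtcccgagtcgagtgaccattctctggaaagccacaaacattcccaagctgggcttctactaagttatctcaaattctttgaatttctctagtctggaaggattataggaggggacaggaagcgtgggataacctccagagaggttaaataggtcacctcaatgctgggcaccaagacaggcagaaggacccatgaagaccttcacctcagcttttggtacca
Among all 32851 RefSeq promoter windows of the same length a share of 8.46% held a match. The 12 genes with the steepest rise, the 3 marker genes, Ccl17, Relb and Nfkb2 were looked for; 14 of these 18 had a window, and 3 held a match: Cxcl1 with 2, Nfkb2 with 3 in the window shown, and the predicted gene Gm10851 with 1. A match describes the letters only.

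NF-κB factors and survival genes rose as a group: 19 of 24 tested were higher and 1 lower, with a median log2 change of 1.13. NF-κB is a family of dimeric transcription factors, and its RelB and p52 (Nfkb2) pair is a hallmark of dendritic cell maturation. Relb was at 556, 462 and 469 CPM in mature barcodes of AOM PN and 414 and 406 CPM in those of Apc ICI, against 77.5, 89.5 and 60.2 CPM and 67.4 and 62 CPM in immature ones. No mature library came near an immature one (log2 change 2.7 ± 0.13 SE, edgeR adjusted p = 1.7e-07). Nfkb2 averaged 175 and 51 CPM and Rel 1663 and 681 CPM. The anti-apoptotic Bcl2a1b averaged 2893 and 375 CPM and the ubiquitin ligase Birc2 240 and 31.6 CPM. Bcl2a1b and Bcl2a1d are near-identical copies, so reads may be split between them. Bcl2, another survival gene, was the member that fell, at 5.75 and 23 CPM.

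Ligands that steer T cells rose on both the activating and the restraining side. Of 8 costimulatory genes tested 5 rose and 1 fell. Cd80, which engages Cd28 and Ctla4, averaged 215 ± 46.5 CPM in mature and 77.6 ± 31.8 CPM in immature barcodes (log2 change 1.49), Cd40 188 and 39.1 CPM, and Cd86 326 and 189 CPM. Sema7a, a semaphorin that binds integrins, averaged 92.4 and 10.4 CPM. Cd48 fell, at 77.4 and 201 CPM. Of 16 checkpoint and restraint genes 11 rose and 3 fell. Cd274 was at 321, 257 and 289 CPM in mature AOM PN barcodes and 295 and 253 CPM in mature Apc ICI ones, against 50.1, 67.8 and 73.6 CPM and 79.5 and 58.5 CPM in immature ones. The spread within each state was small beside the gap (log2 change 2.09 ± 0.14 SE, edgeR adjusted p = 1.8e-06). Pdcd1lg2 (PD-L2) averaged 196 and 36.8 CPM, Cd200, the ligand of an inhibitory receptor, 239 and 14.3 CPM, and Nectin2, which binds Tigit, 44.8 and 1.67 CPM. Il4i1, a secreted amino acid oxidase that limits T cells, averaged 1016 ± 326 and 13.3 ± 23.2 CPM. Leaving out AOM PN 3 raised the fitted log2 change of Il4i1 to 7.89 and that of Nectin2 to 4.87. Lgals9, Lgals3 and Vsir fell. Against immature barcodes with at least 2 UMIs of Xcr1 and Clec9a together (AOM PN only), Lgals9 no longer passed (log2 change -0.50, edgeR adjusted p = 0.263). There Vsir had a log2 change of 0.12. With libraries left out the log2 change of Vsir stayed between -1.16 and -0.76; its test missed the threshold once any of AOM PN 1, 2 or 3 or Apc ICI 1 was left out (edgeR adjusted p 0.0617 to 0.109).

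Cytokines and their receptors followed. Of 10 cytokine genes tested 6 rose and 1 fell, and 5 of the 10 were mainly of another class. Il12b was at 1622, 55.8 and 420 CPM in mature barcodes of AOM PN and 189 and 292 CPM in those of Apc ICI, against 0 to 11 CPM in immature ones. The single barcode described above held 52.5% of the Il12b UMIs of AOM PN 1. The fitted log2 change of 6.39 became 5.63 without AOM PN 1 and 8.99 without AOM PN 3. Ebi3, a subunit of IL-27 and IL-35, averaged 52.5 and 16.8 CPM. Il1rn, the IL-1 receptor antagonist, averaged 521 and 132 CPM. Il1b had 5757 ± 1186 and 5014 ± 801 CPM and did not pass (edgeR adjusted p = 0.0899). Il6 passed narrowly (edgeR adjusted p = 0.049) and missed the threshold once any of AOM PN 1 or 2 or Apc ICI 1 or 2 was left out. Of 21 receptor and signalling genes tested 11 rose and 3 fell. Tnfrsf9, which encodes 4-1BB, was at 217, 231 and 146 CPM in mature AOM PN and 305 and 362 CPM in mature Apc ICI barcodes, and at 13.4 CPM or less in each immature sum. Il7r averaged 402 ± 44.8 CPM in mature and 67.2 ± 64.7 CPM in immature barcodes, and Il2ra 38.4 and 5.84 CPM, with a fitted log2 change of 2.39 that became 4.40 without AOM PN 2. Stat5a, a transducer of such signals, averaged 67.8 and 16.1 CPM. Ifngr1 fell, at 215 and 415 CPM. Il7r and Il2ra are also T cell genes. The T cell receptor gene Trbc2 had a UMI in 1.67% of members, 2.86% of neutrophil-gated and 5.66% of epithelial-gated barcodes. Members had to hold 0 Cd3e UMIs, a limit that the neutrophil and epithelial gates lack, so the Trbc2 share of members is partly set by the rule. The part of T cell RNA in Il7r and Il2ra was not tested.

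The class I and class II antigen presentation routes moved apart. Of 12 class II genes tested, 2 rose and 8 fell, with a median log2 change of -0.76. Of these 12, 5 were mainly of another class, beside 0 of the 22 class I genes tested. H2-DMb1, a chain of the H2-DM complex that loads peptide on class II, was at 178, 334 and 302 CPM in mature AOM PN barcodes and 212 and 210 CPM in mature Apc ICI ones, against 1074, 731 and 941 CPM and 966 and 1253 CPM in immature ones. The states did not overlap (log2 change -2.0 ± 0.20 SE, edgeR adjusted p = 2.5e-05). H2-DMa averaged 225 and 649 CPM, Ciita, the class II transactivator, 64.2 and 140 CPM, and March1, the ubiquitin ligase that removes class II from the surface, 8.46 and 67.1 CPM. The class II chain gene H2-Aa was close in both, at 5454 and 6738 CPM, and missed the threshold once any of AOM PN 1 or 3 or Apc ICI 1 or 2 was left out (edgeR adjusted p 0.0887 to 0.129). H2-Eb2, a rarely used class II chain gene, ran against the rest with 120 mature and 3 immature UMIs (ratio 53.7, interval 17.9 to 264). Of 22 class I genes, 13 rose and 2 fell. H2-Q6 averaged 134 and 23.2 CPM and H2-Q7 380 and 92.5 CPM; as class I genes they share sequence, so their split is uncertain. The proteasome activator Psme2 averaged 1348 and 490 CPM and Nlrc5, the class I transactivator, 30.6 and 9.26 CPM. The chaperones Calr and Pdia3 fell.

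Genes of the immature state fell. Of 9 type 1 conventional dendritic genes tested 6 fell and 1 rose, and of 14 type 2 genes 9 fell and 2 rose. Naaa, a lysosomal amidase, was at 12.1, 41 and 31.8 CPM in mature AOM PN barcodes and 11.1 and 18.2 CPM in mature Apc ICI ones, against 193 to 380 CPM in immature ones. Wdfy4, needed for cross-presentation, averaged 49.9 and 211 CPM. Id2, a transcription factor of type 1 cells, was the one that rose, at 894 ± 126 and 178 ± 52.5 CPM (log2 change 2.33). Klf4, a factor of type 2 cells, averaged 164 and 382 CPM. Clec10a averaged 59.7 and 198 CPM. Set against immature barcodes with at least 2 UMIs of Xcr1 and Clec9a together (AOM PN only), it had a log2 change of 0.56 and did not pass (edgeR adjusted p = 0.214). Itgam and Ms4a4c turned in the same way and passed (edgeR adjusted p = 0.0239 and 0.00538). Tmem176a, a membrane protein of type 2 cells, rose, at 438 and 128 CPM. Bcl11a, a lineage factor of dendritic progenitors, averaged 3.21 and 40.4 CPM. The steepest falls outside the lists were Lmo1, Sdad1, Tppp3, Fcgrt (the neonatal Fc receptor chain), Fgd2 and Iqgap2, with log2 changes of -3.98 to -2.49. Of 12 uptake and pattern recognition genes 5 fell and 1 rose, and of 15 lysosomal genes 7 fell and 3 rose. Most of these tested genes, 10 of the 12 and 12 of the 15, were mainly of another class. Psap averaged 391 and 1144 CPM, while Lamp1 averaged 463 and 189 CPM.

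Other programmes were mixed. Aldh1a2, the retinal dehydrogenase by which gut dendritic cells make retinoic acid, averaged 32.5 ± 16.0 CPM in mature and 2.5 ± 2.08 CPM in immature barcodes (log2 change 3.3, and 3.94 without AOM PN 3), and a UMI of it was found in 18.9% of members, 0.0663% of neutrophil-gated and 1.3% of epithelial-gated barcodes. Fabp5, a fatty acid carrier, was at 5614, 4008 and 8237 CPM in mature AOM PN and 5099 and 3612 CPM in mature Apc ICI barcodes, against 146 to 640 CPM in immature ones. Of 8 genes of retinoic acid and TGF-β handling 3 rose and 3 fell, with Tgfbr2 lower at 9.75 and 31.7 CPM. Of 18 interferon response genes 8 rose and 6 fell: Gbp2 averaged 137 and 30 CPM and Gbp5 83.6 and 13.1 CPM, while Irf7 averaged 43.4 and 139 CPM. Against immature barcodes with at least 2 UMIs of Xcr1 and Clec9a together (AOM PN only), the log2 change of Irf7 was -0.16 (edgeR adjusted p = 0.731). Of 18 glycolysis and hypoxia genes 10 rose and 1 fell, with Vegfa at 168 and 58.6 CPM. Immediate early and heat shock genes fell in 9 of 16 and rose in 0, Egr1 averaging 69.1 and 327 CPM and Jun 313 and 877 CPM. Of the 16 tested, 9 were mainly of another class. Of 6 cell cycle genes 3 fell and 0 rose. The 9 monocyte and macrophage genes tested were all mainly of another class. Of these 9, 5 fell and 2 rose, Apoe and Arg1. The mature rule sets no limit on C1q while the immature rule does. Among mature barcodes with at most 1 C1q UMI the log2 change of Apoe was -0.08. Arg1 did not pass there either (edgeR adjusted p = 0.0511). Apoe also missed the threshold without any of AOM PN 1 or 3 or Apc ICI 1 or 2, and Arg1 without AOM PN 2 or Apc ICI 1 or 2, while without AOM PN 3 its log2 change was 3.31.

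**Figure D4:**
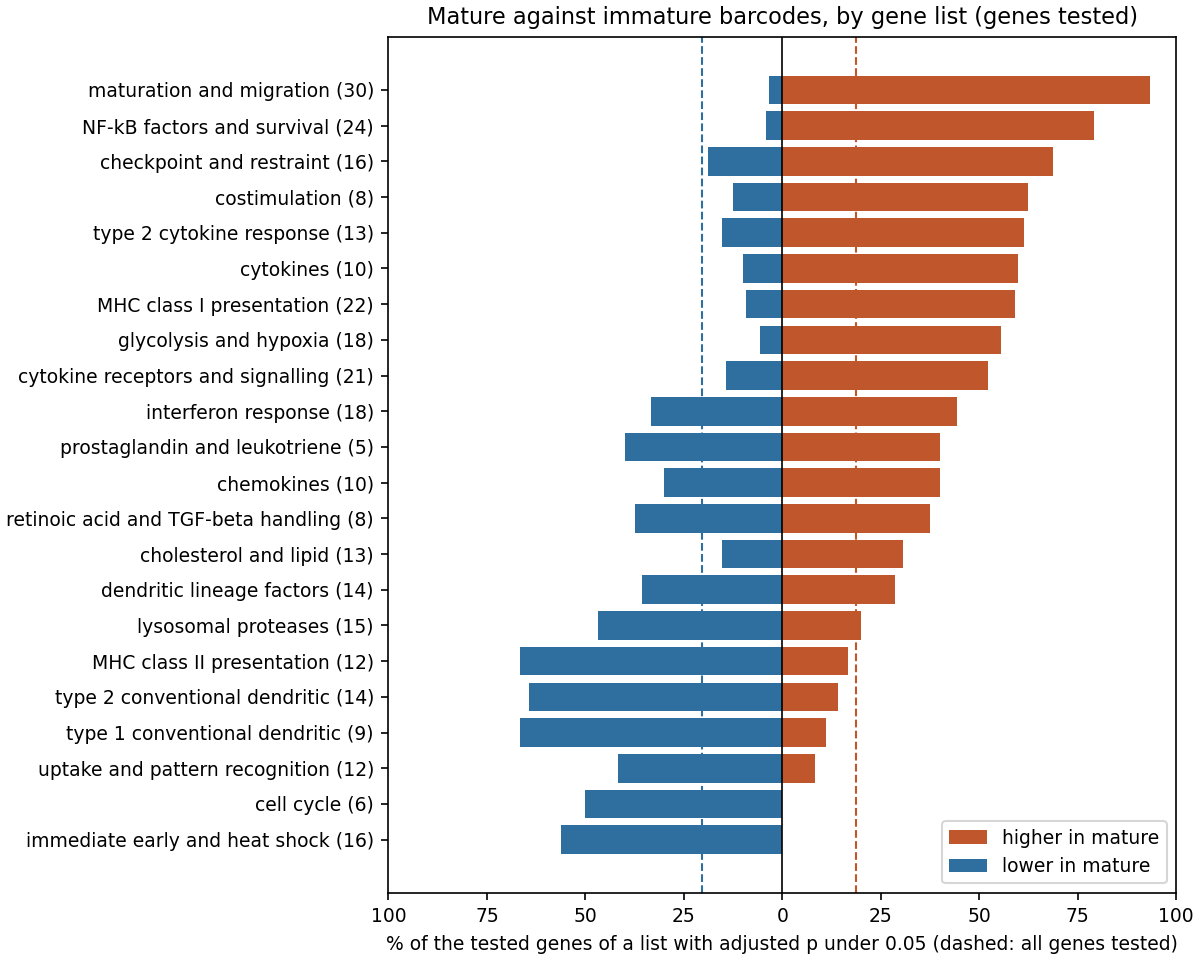
Share of the tested genes in each list shown that were higher (right) or lower (left) in mature than in immature barcodes at an adjusted p under 0.05, with the number tested in brackets. Dashed lines give all genes tested, 18.8% higher and 20.4% lower; maturation and migration has 28 of 30 higher, and immediate early and heat shock 0 of 16.

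The third comparison asked whether mature cells of the models differ in expression. At the precision of 3 against 3 libraries no gene passed: of 5360 genes tested, 0 passed an adjusted p of 0.05 in edgeR (0%), 499 had an unadjusted p under 0.05 (9.31%), and the lowest adjusted p was 0.0566. DESeq2 called 33 of the same genes, 23 higher and 10 lower in AOM PN. The libraries of the models did not overlap for 841 genes (15.7%). Of genes that separated the states, Relb (479 ± 46.2 CPM in AOM PN and 415 ± 39.5 CPM in Apc ICI), Cd274 (279 ± 28.5 and 252 ± 26.6 CPM) and Fabp5 (5757 and 4304 CPM) overlapped between the models. The 30 maturation and migration genes tested had a median log2 change of -0.03, beside -0.01 over all genes. In that list 2 were higher and 4 lower at an unadjusted p under 0.05, beside 4.72% and 4.59% of all genes.

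No gene met the rule for naming, so the genes given here were chosen after their values were seen, from those with the lowest p and from the lists. Timd4, which encodes the phosphatidylserine receptor Tim-4, was at 300.1, 286 and 310 CPM in AOM PN and 23, 4.76 and 82.6 CPM in Apc ICI, with no overlap (log2 change 3.32 ± 0.54 SE, edgeR adjusted p = 0.0566). It passed without Apc ICI 3 (0.0142) and with haemoglobin genes left out (0.0473). It passed too without scored doublets (0.00835), a fit that also drops Apc ICI 3, so these cannot be told apart. In immature barcodes Timd4 was at 173, 176 and 254 CPM in AOM PN and 30.5, 7.3 and 46.1 CPM in Apc ICI, and passed there, with Apc ICI 3 left out of the fit (log2 change 3.29, edgeR adjusted p = 0.0227); 8 of 6214 genes passed in that test (0.129%). Apol7c was at 536, 541 and 563 CPM in AOM PN and 133, 335 and 103 CPM in Apc ICI (log2 change 1.48, adjusted p = 0.174). Cd83 was at 909, 704 and 965 CPM in AOM PN and 559, 581 and 509 CPM in Apc ICI, again without overlap (adjusted p = 0.229). Il1b averaged 6176 ± 986 CPM in AOM PN and 4438 ± 438 CPM in Apc ICI. H3f3b, Actb, Ifrd1 and Ftl1-ps1 shared the lowest adjusted p of 0.0566, each without overlap. Axl (log2 change -2.13), Gm8797 (3.70) and Wfdc17 (1.91) stood at the same adjusted p without overlap, but were mainly of another class. H3f3b, which encodes histone H3.3, averaged 3891 ± 292 CPM in AOM PN and 2147 ± 76.5 CPM in Apc ICI (log2 change 0.86). Actb, beta actin, averaged 30623 ± 1013 CPM in AOM PN and 19749 ± 1152 CPM in Apc ICI (log2 change 0.63), and Ifrd1 842 ± 58.6 and 448 ± 31.4 CPM (0.91). Ftl1-ps1, a ferritin light chain pseudogene that may share reads with Ftl1, averaged 18.3 and 65 CPM (-1.84). On the lower side of AOM PN, Rsrp1, a nuclear arginine- and serine-rich protein, averaged 106 ± 29.6 and 312 ± 32.7 CPM (log2 change -1.54, adjusted p = 0.0566). Tnfrsf9 was at 207, 225 and 142 CPM in AOM PN and 290, 348 and 488 CPM in Apc ICI (adjusted p = 0.207). Nudt17 averaged 78 and 156 CPM, Cacnb3 148 and 245 CPM, Cd80 176 and 270 CPM, and the cholesterol exporter Abca1 25.8 and 71.5 CPM, all without overlap and all short of the threshold in edgeR. Of the genes in this account DESeq2 called Rsrp1 (adjusted p = 1.0e-05), H3f3b (0.000348), Ifrd1 (0.00137), Apol7c (0.00159), Ftl1-ps1 (0.00263), Actb (0.0224), Abca1 (0.0241) and Tnfrsf9 (0.0405). It also called Wfdc17 (5.0e-05), Gm8797 (0.000348) and Axl (0.00161). In edgeR, Apol7c passed without Apc ICI 2 (0.00445), and Rsrp1 passed under the stricter rule (0.0417), without haemoglobin genes (0.0347), with the S100 limit given below (0.0169) and without AOM PN 2 (0.0376) or Apc ICI 2 (0.0497). H3f3b, Actb and Ftl1-ps1 each passed in edgeR under the stricter rule (0.0417), without haemoglobin genes (0.0347) and with the S100 limit (0.0304). Actb passed too without AOM PN 2 (0.0446), and Ifrd1 with the S100 limit (0.0490).

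Ccl17 and Il12b varied between libraries of a model and overlapped between the models. Ccl17 was at 1214, 1425 and 1045 CPM in AOM PN and 1007, 3300 and 2129 CPM in Apc ICI, so Apc ICI 1 lay below every AOM PN library. Il12b was at 1552, 54.3 and 408 CPM in AOM PN and 181, 281 and 48.2 CPM in Apc ICI. The heat shock genes Hspa1a and Hspa1b were high in AOM PN 2, at 1381 and 1768 CPM, and at 31 to 257 CPM in the other libraries. RNA of other cells was present as well, and only some of it separated the models. The neutrophil gene S100a8 was at 2678, 626 and 642 CPM in mature barcodes of AOM PN and 74.4, 453 and 65.4 CPM in those of Apc ICI, and the mast cell protease Mcpt1 at 202, 58.3 and 3231 CPM and 5.31, 4.76 and 13.8 CPM. The 10 neutrophil genes listed took 0.179% to 0.647% of member UMIs in AOM PN and 0.0338% to 0.204% in Apc ICI, which overlapped. For 11 mast and basophil genes it was 0.0215% to 0.785% and 0.00576% to 0.0118%, without overlap. Members with 2 or more UMIs of the macrophage C1q genes were 9 of 264 (3.41%) in AOM PN and 15 of 96 (15.6%) in Apc ICI. By library they were 2 of 65, 4 of 96 and 3 of 103 in AOM PN, and 3 of 36, 9 of 40 and 3 of 20 in Apc ICI. Apc ICI members were sampled more deeply, and these C1q counts were not thinned to a common depth. The part of these RNAs in the differences was not tested. With members holding 20 or more S100a8 and S100a9 UMIs left out, edgeR called 6 genes higher and 3 lower, Timd4 among them.

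**Figure D5:**
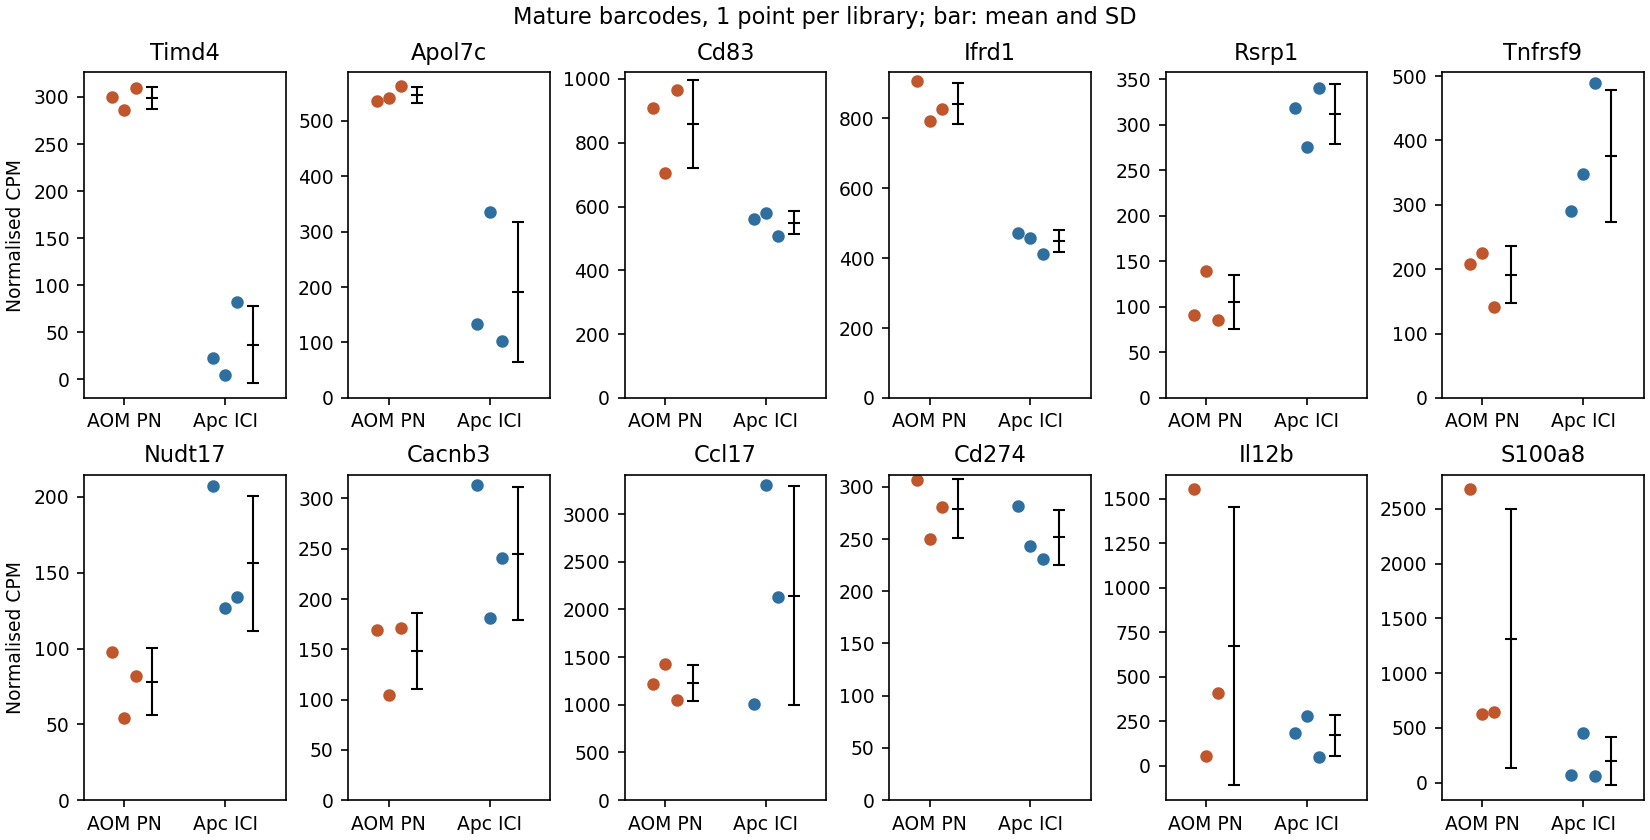
Normalised CPM of 12 genes in summed mature barcodes, with 1 point per library and bars for mean and SD, AOM PN left and Apc ICI right. Timd4, Apol7c, Cd83 and Ifrd1 are higher and Rsrp1, Tnfrsf9, Nudt17 and Cacnb3 lower in all AOM PN libraries, 0 of the 12 pass an adjusted p of 0.05, and Ccl17, Cd274 and Il12b overlap.

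Last, an interaction test over 5 libraries asked whether the contrast of mature over immature barcodes differed between the models. Of 6797 genes tested 2 passed (0.0294%), Areg upward and Cd63 downward (0.0147% each). Areg, an EGF receptor ligand, was at 277, 182 and 355 CPM in mature and 82.1, 40.2 and 59.5 CPM in immature barcodes of AOM PN, and at 117 and 182 CPM in mature and 190 and 244 CPM in immature barcodes of Apc ICI. It was thus higher in mature barcodes in 3 of 3 AOM PN libraries and lower in 2 of 2 Apc ICI libraries. Cd63, a tetraspanin of late endosomes on the maturation list, was at 1001, 634 and 1028 CPM in mature and 201, 99.6 and 368 CPM in immature barcodes of AOM PN, and at 892 and 756 CPM in mature and 12 and 17.2 CPM in immature barcodes of Apc ICI. It was higher in mature barcodes in 5 of 5 libraries. Other classes carry more of both, with Areg at 2278 CPM in T-gated and Cd63 at 4932 CPM in mast-gated barcodes; the mast and basophil list took 0.225% to 1.14% of immature UMIs in AOM PN and 0.0026% to 0.00853% in Apc ICI, and its part was not tested. Each call was lost when Apc ICI 1 or Apc ICI 2 was left out (edgeR adjusted p = 0.257 and 0.322). That leaves 1 Apc ICI library, whose spread is assumed to be like that of the others; the log2 differences stayed at 2.67 and 2.91 for Areg (2.77 with all 5 libraries) and at -3.29 and -4.07 for Cd63 (-3.72).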

How the data were processed

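Counts were UMIs per gene and barcode in 6 10x Chromium 3′ v3 libraries of whole mouse colon tumours. The authors deposited raw counts made with Cell Ranger 6.1.2 on mm10, per the submitters' processing notes; the gene annotation and the rule for calling cells are not given in the sources used here. Deposited barcodes held at least 500 UMIs, and libraries totalled 59309093 to 98583066 UMIs. Members and gene lists were chosen with earlier results of these data known.

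UMIs of mature and of immature barcodes were summed per library (at least 10 barcodes a sum) and tested with edgeR 4.0.16 (TMM, filterByExpr, glmQLFit and glmQLFTest, Benjamini-Hochberg over all genes tested) in R 4.3.3; genes were named where adjusted p was under 0.05, the libraries of the groups did not overlap or all moved 1 way, and the higher side held at least 20 UMIs, leaving out genes mainly of another class and taking the 12 largest changes each way, the 5 lowest p each way for the interaction, and list members of the roles described. Genes either rule reads were left out of calls. Genes mainly of another class had under 0.25 of the level in a gated background class. Shares were compared by exact permutation over libraries (scipy 1.17.1). Doublets were scored against simulated ones (0.8% per 1000 barcodes). Fits were tested on simulated data. Alternatives were DESeq2 1.42.0, other scaling and filters, stricter rules, thinning, and leaving out libraries, doublets or haemoglobin genes. The NF-κB consensus was searched after a narrower form of it, which matched the same number of the genes looked for. No member barcodes were shared and no library was a copy of another.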

Additional observations from a re-analysis of the deposited data

Results flagged for a closer look

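The contrast of mature over immature barcodes differed between the models for Areg by 2.77 ± 0.30 log2 units (SE; AOM PN minus Apc ICI, edgeR interaction, adjusted p = 0.0102) and for Cd63 by -3.72 ± 0.47 (adjusted p = 0.0239). For Areg the direction within a library was opposite in the 3 AOM PN and the 2 Apc ICI libraries; for Cd63 it was the same, and larger in Apc ICI. Both tests rest on 25 and 16 immature barcodes in the Apc ICI libraries. With Apc ICI 3 kept through its 8 immature barcodes, Areg no longer passed (edgeR adjusted p = 0.16) while Cd63 did.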

How the results depend on the processing

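The mature against immature result kept its size: counts ranged from 871 to 1479 genes higher and 777 to 1414 lower over all alternatives but thinning to 2000 UMIs, which left 1612 genes to test and gave 321 and 236. Of 120 genes followed, 92 kept direction and call in every alternative run. Against immature barcodes with at least 2 UMIs of Xcr1 and Clec9a together (3 AOM PN libraries), log2 changes turned positive for Ccl6 (0.85), Ccl9 (2.31), Clec10a (0.56), Fcgr1 (1.35), Itgam (1.78), Ms4a4c (1.28), Tgfb1 (0.30) and Vsir (0.12). Of these, only Ccl9, Itgam and Ms4a4c passed there. The log2 change of Apoe was -0.0797 with at most 1 C1q UMI.

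Between models in mature barcodes, genes higher and lower in AOM PN numbered 23 and 10 in DESeq2, 150 and 73 with no filter beyond 1 count, 4 and 3 under the stricter rule, 1 and 0 without doublets (Apc ICI 3 dropped out with 7 barcodes), 5 and 3 without haemoglobin genes, 6 and 3 with under 20 S100a8 and S100a9 UMIs, and 0 to 5 and 0 to 4 leaving out 1 library. RLE scaling, thinning and the C1q limit gave 0. Leaving out 1 library moved the log2 change of Ccl5 between -0.88 and 0.25, the sign turning without Apc ICI 1. The interaction gave 32 and 67 with no filter, and 0 to 4 and 0 to 7 leaving out 1 library. In immature barcodes the test gave 8 and 0, 220 and 68 with no filter, 11 and 3 with sums of at least 5 barcodes, and 0 to 39 and 0 to 23 leaving out 1 library. The causes were not tested.

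Same-numbered libraries of the models had deviations with r of -0.0695, 0.0326 and -0.0636. Differently numbered ones had r of -0.0284 to 0.101. With 3 libraries a model this cannot tell whether the numbers pair libraries or mark a shared batch. A replicate block gave 3 and 0 in mature and 53 and 11 in immature barcodes. Without the library block, 976 and 1027 genes separated mature from immature barcodes. The C1q, S100 and 5-barcode limits were chosen after seeing the data. The share differences kept their direction in all alternatives, from 0.08 to 0.396 percentage points of kept and -26.5 to -12.4 of dendritic barcodes. The 20 members of Apc ICI 3 limit the precision.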
